A study of Mus musculus with 3 samples.

Results

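Laminins are the cell-binding proteins of basement membranes, and nidogens and perlecan link them to the collagen network. The 10 genes described here encode 4 laminin α chains (Lama1, Lama2, Lama4 and Lama5), 2 β chains (Lamb1 and Lamb2), the γ1 chain (Lamc1), nidogen-1 and nidogen-2 (Nid1 and Nid2) and perlecan (Hspg2). They were taken as the named genes to which a probe set was annotated alone. All 10 were measured, by 20 probe sets, among 18194 genes with 34958 such probe sets. The cells were 3 wild-type samples of astrocytes made in culture from mouse embryonic stem cells, all in 1 group. The stem cells had formed embryoid bodies for 4 days, been selected as neural precursors for 5 to 7 days and been grown with FGF2 and a factor labelled EGF2. At passage 18 the growth factors were withdrawn and 5% FBS was given for 5 days. Labelled material from total RNA was read on Affymetrix mouse expression arrays with 1 colour, and the labels do not say that the samples came from separate cultures, so the p-values measure a spread that may be technical.

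Each laminin is a trimer of an α, a β and a γ chain, and its numeric name gives the chains in that order. Trimers assemble in the secretory pathway, reach the cell surface, bind integrins and dystroglycan there through the end of the α chain, and join into a sheet. Nidogen holds this sheet to the type IV collagen network through a site on the γ1 chain, and perlecan carries heparan sulfate chains that bind growth factors. In brain, astrocyte endfeet rest on a basement membrane at blood vessels and under the meninges. The α1 and α2 chains are known from its glial and meningeal side, and the α4 and α5 chains from its endothelial side.

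Of the 10 genes, 6 had signal above background: Lama5, Lamb1, Lamb2, Lamc1, Nid2 and Hspg2. Lama1, Lama2, Lama4 and Nid1 did not pass the test. Thus 1 of 4 α chain genes, both β chain genes, the γ1 gene, 1 of 2 nidogen genes and the perlecan gene were called. Background was the 95th percentile of 77 odorant, pheromone, trace-amine and taste receptor genes, and it lay at log2 intensities of 3.99, 4.10 and 4.07 on replicates 1, 2 and 3. A gene was called above it at an adjusted p below 0.05 in a one-sided limma test over 18117 genes. In that test 58.3% of all genes were called, so the members' share, 60%, was close to the general share. Their median was 2.63 log2 units above the limit, and that of all genes was 1.76. Over single probe sets the order was reversed, with 0.38 for those of the members and 0.92 for all tested. A gene that did not pass is not shown to be absent. Probe sets differ in brightness, so the levels below compare a gene with background or between arrays, not with another gene.

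**Figure D1:**
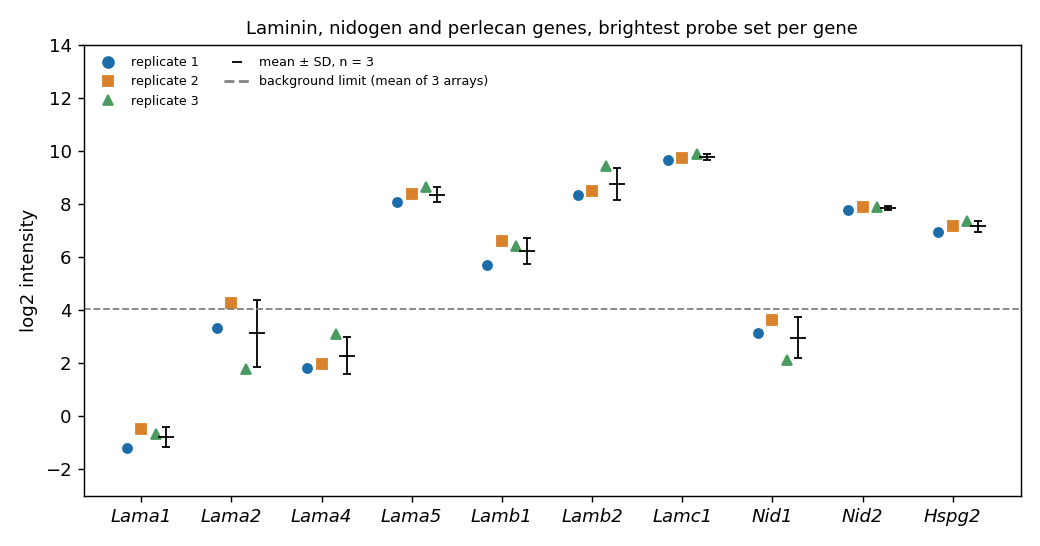
Log2 intensity (vertical axis) of each gene's brightest probe set on the 3 arrays (coloured symbols), with the mean ± SD (n = 3) in black and the mean background limit as a dashed line. Lama5, Lamb1, Lamb2, Lamc1, Nid2 and Hspg2 lie above the line on every array, and Lama2 crosses it on replicate 2 alone.

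Lama5 was the α chain gene with signal. It encodes the α5 chain, which is widespread in adult basement membranes. Its log2 intensity was 8.05, 8.36 and 8.64 on replicates 1, 2 and 3, every value far over the limit of its array. The mean of 8.35 ± 0.30 (SD, n = 3) was 4.30 log2 units above the limit (SE 0.16, adjusted p = 6.6e-05), or 19.6 times the limit on the linear scale. A second Lama5 probe set, of a class that may bind more than 1 transcript, read 7.14, 7.64 and 8.07 and was also called. The dimmest read 0.88, -1.02 and -0.27, below the limit on all 3 arrays.

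The other α chains gave no signal that could be told from background. Lama1 encodes the α1 chain of early embryonic basement membranes. Its probe set read -1.21, -0.50 and -0.66, with a mean of -0.79 ± 0.37 (SD, n = 3), well under the limit on all 3 arrays. Lama2 encodes the α2 chain, whose loss causes a muscular dystrophy and which astrocytes are known to make. Its only probe set read 3.32, 4.26 and 1.78, so it was over the limit on replicate 2 and under it on the others. The Lama2 mean of 3.12 ± 1.25 (SD, n = 3) lay -0.94 log2 units from the limit (adjusted p = 1). Lama4, for the α4 chain of vessel walls, read 1.80, 1.96 and 3.07 (mean 2.28 ± 0.69, n = 3), and its second probe set read 0.68, 0.45 and 1.30. All of these Lama4 values were under the limit.

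Both β chain genes were above background. Lamb1 encodes the β1 chain and Lamb2 the β2 chain, which is known from synaptic, kidney and vascular basement membranes. Lamb2 read 8.31, 8.50 and 9.42, and replicate 3 stood above the other 2. Its mean of 8.74 ± 0.59 (SD, n = 3) was 4.69 log2 units above the limit (SE 0.27, adjusted p = 0.000189). Lamb1 read 5.68, 6.58 and 6.40, with replicate 1 the lowest. Its mean of 6.22 ± 0.48 (SD, n = 3) was 2.17 log2 units above the limit (SE 0.22, adjusted p = 0.000989), or 4.49 times it.

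Lamb1 was the member whose call depended on its probe sets. The probe set above belongs to a class that may bind more than 1 transcript. A second, specific one read 4.49, 5.11 and 4.94 and was called as well (adjusted p = 0.0152 over all probe sets). The next read 4.02, 4.60 and 3.47, on either side of the limit. The dimmest read 0.03, 2.71 and 2.52, all under it. With the median of the 4 in place of the brightest, Lamb1 was 0.41 log2 units above the limit and was no longer called (adjusted p = 0.124). With a limit set from genes of other tissues it was 0.47 log2 units above (adjusted p = 0.208). Over the 13 alternatives its adjusted p ran from 8.55e-07 to 0.208.

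The γ1 chain gene, Lamc1, had 9.67, 9.73 and 9.87, close together on the 3 arrays. γ1 is the γ chain of most laminins and holds the nidogen-binding site. The Lamc1 mean of 9.76 ± 0.11 (SD, n = 3) was 5.70 log2 units above the limit (SE 0.12, adjusted p = 3.84e-05), or 52.1 times it. Its second probe set read 5.72 and 5.76 on replicates 1 and 2 but 3.21 on replicate 3. That probe set was not called (adjusted p = 0.243).

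These calls can be set against the trimers they could form. Of the 8 combinations of an α1, α2, α4 or α5 chain with β1 or β2 and γ1, laminin-511 and laminin-521 had all 3 chain genes above background. The other 6, among them laminin-111, laminin-211 and laminin-411, had 2 of 3, with the α chain gene not called in each. Under the 2 settings in which Lamb1 was not called, laminin-511 had 2 of 3 and laminin-111, laminin-211 and laminin-411 had 1 of 3, while laminin-521 kept 3. This is a count of transcripts on arrays, and no protein was measured.

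The nidogen genes fell on either side of background. Nid2 read 7.76, 7.88 and 7.89, nearly equal on the 3 arrays. Its mean of 7.84 ± 0.08 (SD, n = 3) was 3.79 log2 units above the limit (SE 0.12, adjusted p = 4.87e-05), or 13.8 times it. Nid1 had 3 probe sets, and every one was under the limit on every array. The brightest read 3.14, 3.64 and 2.10 (mean 2.96 ± 0.78, n = 3) and lay -1.09 log2 units from the limit (adjusted p = 1). The second read 1.33, 0.98 and 1.09. The dimmest read 2.18, -2.21 and -0.22, the widest spread of any probe set of the 10 genes.

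Perlecan, encoded by Hspg2, is a large proteoglycan that binds laminin, nidogen and dystroglycan. Hspg2 read 6.95, 7.15 and 7.35 on its brighter probe set and 6.42, 7.15 and 7.28 on the other. The dimmer one is of the class that may bind more than 1 transcript. All 6 values were well over the limit. The mean of the brighter one was 7.15 ± 0.20 (SD, n = 3), which was 3.09 log2 units above the limit (SE 0.14, adjusted p = 9.49e-05). In mean, the dimmer probe set lay -0.20 log2 units from the brighter.

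Taking all 20 probe sets of the members singly, 9 were above background (45%), against 52.2% of 34873 probe sets tested. Those 9 were over the limit on every array, 3 were over it on some arrays and 8 on none. The members had unequal cover, with 1 probe set for Lama1, Lama2, Lamb2 and Nid2 and 4 for Lamb1. The 4 genes that were not called had no called probe set, which taking the brightest probe set as the gene value made likely in advance.

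**Figure D2:**
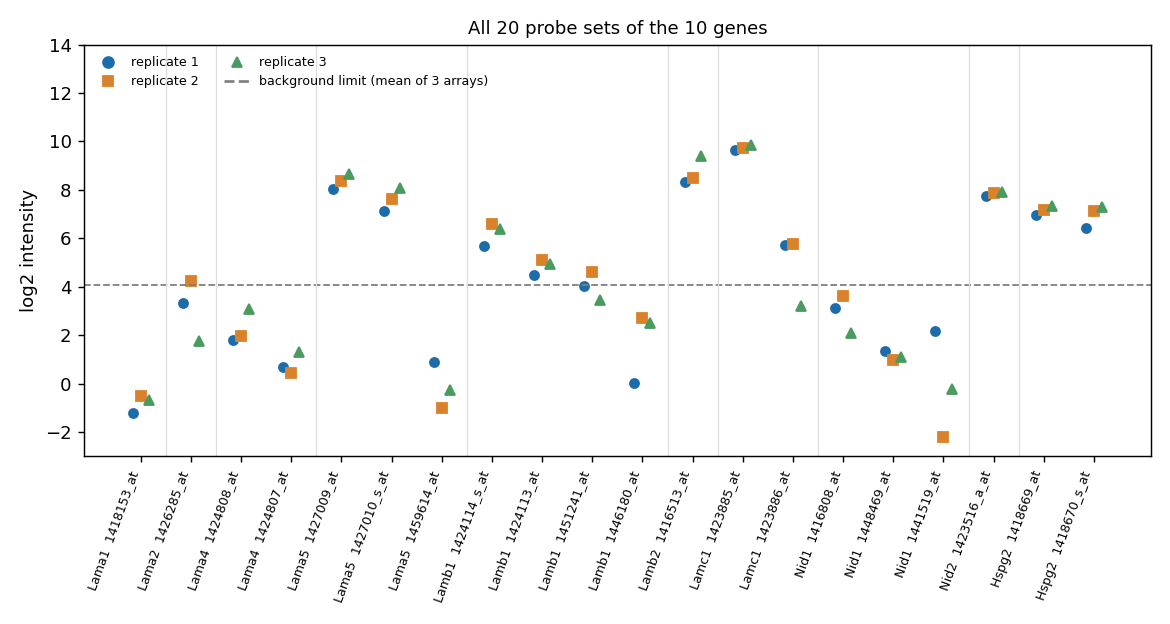
Log2 intensity (vertical axis) of all 20 probe sets of the 10 genes on the 3 arrays (coloured symbols), grouped by gene, with the mean background limit as a dashed line. The dimmest Lama5 and Lamb1 probe sets lie under the line while the brightest of the same gene lie over it, and all 3 of Nid1 lie under it.

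The start regions of 4 members on either side of background are shown, as letters in which a reader can look for promoter elements. They are RefSeq windows of build GRCm38.p6, from 250 bases before to 50 after an annotated start, and 6 of the 10 members had one. Lama5 (chr2:180225810-180226109, minus strand) and Lamb2 (chr9:108479612-108479911, plus strand) were above background. Lama2 (chr10:27616893-27617192, minus strand) and Nid1 (chr13:13437352-13437651, plus strand) were not. Each is printed 5′ to 3′ on the gene's strand, and capitals mark matches to the GC box GGGCGG on either strand, the letters to which Sp1 binds.
Lama5: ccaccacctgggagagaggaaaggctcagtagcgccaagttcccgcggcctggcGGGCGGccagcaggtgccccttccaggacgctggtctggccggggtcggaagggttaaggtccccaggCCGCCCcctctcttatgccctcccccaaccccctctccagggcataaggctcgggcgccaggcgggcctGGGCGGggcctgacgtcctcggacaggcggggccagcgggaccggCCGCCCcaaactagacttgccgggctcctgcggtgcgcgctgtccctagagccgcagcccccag
Lamb2: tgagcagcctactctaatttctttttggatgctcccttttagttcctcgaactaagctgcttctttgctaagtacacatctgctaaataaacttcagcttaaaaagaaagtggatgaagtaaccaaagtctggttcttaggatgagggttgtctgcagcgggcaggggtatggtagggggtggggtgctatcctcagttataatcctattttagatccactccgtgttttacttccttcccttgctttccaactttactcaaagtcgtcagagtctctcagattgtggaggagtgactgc
Lama2: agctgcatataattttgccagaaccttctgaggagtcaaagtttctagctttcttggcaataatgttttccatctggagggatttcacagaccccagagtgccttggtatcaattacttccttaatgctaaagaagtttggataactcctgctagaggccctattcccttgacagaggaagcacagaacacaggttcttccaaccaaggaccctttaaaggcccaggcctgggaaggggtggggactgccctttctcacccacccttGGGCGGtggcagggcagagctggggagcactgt
Nid1: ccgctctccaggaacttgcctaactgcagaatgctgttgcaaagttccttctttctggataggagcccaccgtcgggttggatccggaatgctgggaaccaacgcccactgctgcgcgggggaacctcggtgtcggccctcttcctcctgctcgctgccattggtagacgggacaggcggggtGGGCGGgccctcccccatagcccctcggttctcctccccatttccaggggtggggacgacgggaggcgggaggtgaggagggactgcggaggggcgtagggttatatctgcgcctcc

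Lama5 had 4 GC box matches and Lamb2 had 0, although both genes were above background. Lama2 and Nid1, not above it, had 1 each. In the windows not printed, Lamb1 had 2 and Hspg2 had 5. Of 32841 windows of the same length, 35.7% held a match. The windows held 24 CpG in Lama5, 4 in Lamb2, 1 in Lama2, 20 in Nid1, 18 in Lamb1 and 27 in Hspg2, against a median of 7 over all windows. The CpG-rich windows thus included that of Nid1, whose transcript was not called, and the window of Lamb2, which was called, was CpG-poor. The TATA box TATAAA, searched on both strands, was in none of the 6 windows and in 13.6% of all. CCAAT, searched likewise, was in those of Lamb1 and Nid1 and in 37.4% of all. A match is only a match of letters.

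Between the arrays, the 6 members above background had a median SD of 0.25 log2 units, and that of all 10568 genes above background was 0.24. All 6 were lowest on replicate 1, as were 69.4% of the genes above background, and 5 of 6 were lowest on replicate 1 and highest on replicate 3, as were 53.8%. The deposited values share this offset: the median deviation over genes above background was -0.18, 0.02 and 0.16 log2 units on replicates 1, 2 and 3. With it taken off, the median SD was 0.11 log2 units for the 6 members and 0.18 for all genes above background. Lama5, Lamc1, Nid2 and Hspg2 then stayed within 0.13 log2 units of their own means on each array. Lamb2 was 0.51 log2 units above its mean on replicate 3, and its SD of 0.44 exceeded that of 93.4% of genes above background. Lamb1 was -0.36 on replicate 1 and 0.35 on replicate 2, with an SD of 0.35, above that of 86.6% of those genes. Hspg2 and Lamc1 had the smallest SDs of the 6, 0.032 and 0.078, above those of 2.55% and 14% of the genes. Centring the arrays on their medians over all probe sets instead raised the SDs of Lama5, Lamb2, Lamc1, Nid2 and Hspg2. These went from 0.30, 0.59, 0.11, 0.08 and 0.20 to 0.34, 0.67, 0.21, 0.14 and 0.26. Lamb1 went down, from 0.48 to 0.42. No test of the shifts between arrays is possible within 1 group of 3.

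Of the remaining laminin chain genes, which encode chains known mainly from epithelia and, for γ3, from nerve and retina, 0 of 3 measured were above background (limma, and 0 at an unadjusted p below 0.05). Lama3 had a mean of 3.73 ± 0.21, Lamb3 of 1.59 ± 1.27 and Lamc3 of 3.22 ± 1.10 (SD, n = 3). Lamb3 read 3.06 on replicate 1 and 0.92 and 0.80 on the others.

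Type IV collagen, to which nidogen and perlecan tie the laminin sheet, was represented by 4 of 6 chain genes. Col4a1 and Col4a2, for the chains found in nearly all basement membranes, were at 5.99 ± 0.34 and 6.34 ± 0.23. Col4a5 and Col4a6 were at 10.72 ± 0.32 and 6.13 ± 0.10. All 4 were called on every probe set they had. Col4a3 and Col4a4, known from the kidney filter, read between -0.22 and 3.41 and between 0.99 and 4.27 and were not called. Col15a1 and Col18a1, for basement membrane collagens with heparan or chondroitin sulfate chains, were at 4.08 ± 0.67 and 3.99 ± 0.19, beside the limit, and did not pass either (adjusted p = 0.739 and 1). With the limit set from genes of other tissues, the count for these 8 collagen genes was 1.

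Of 12 laminin receptor genes, 10 were above background (83.3%, against 58.3% of all genes). Dag1, which encodes dystroglycan, was at 11.73 ± 0.23 and was called on 4 of 4 probe sets. The integrin α genes Itga3, Itga6 and Itga7, whose products pair with β1 to bind laminin, were at 10.02 ± 0.46, 9.93 ± 0.20 and 7.98 ± 0.41. Itgb1, their β partner, was at 9.89 ± 0.31 and was called on 3 of 6 probe sets. Itgb4, which pairs with α6 in epithelial hemidesmosomes, was at 3.18 ± 1.02 and did not pass. Itga1, of a collagen and laminin receptor, was at 7.27 ± 0.32, and Itga2, of a related one, ranged from 1.09 to 4.34 and did not pass. Bcam, an α5 laminin receptor, was at 5.36 ± 0.22. Cd151, a tetraspanin partner of laminin-binding integrins, was at 10.91 ± 0.11 and was called on 5 of 6 probe sets. The syndecan genes Sdc1 and Sdc4 were at 7.74 ± 0.11 and 10.74 ± 0.24.

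**Figure D3:**
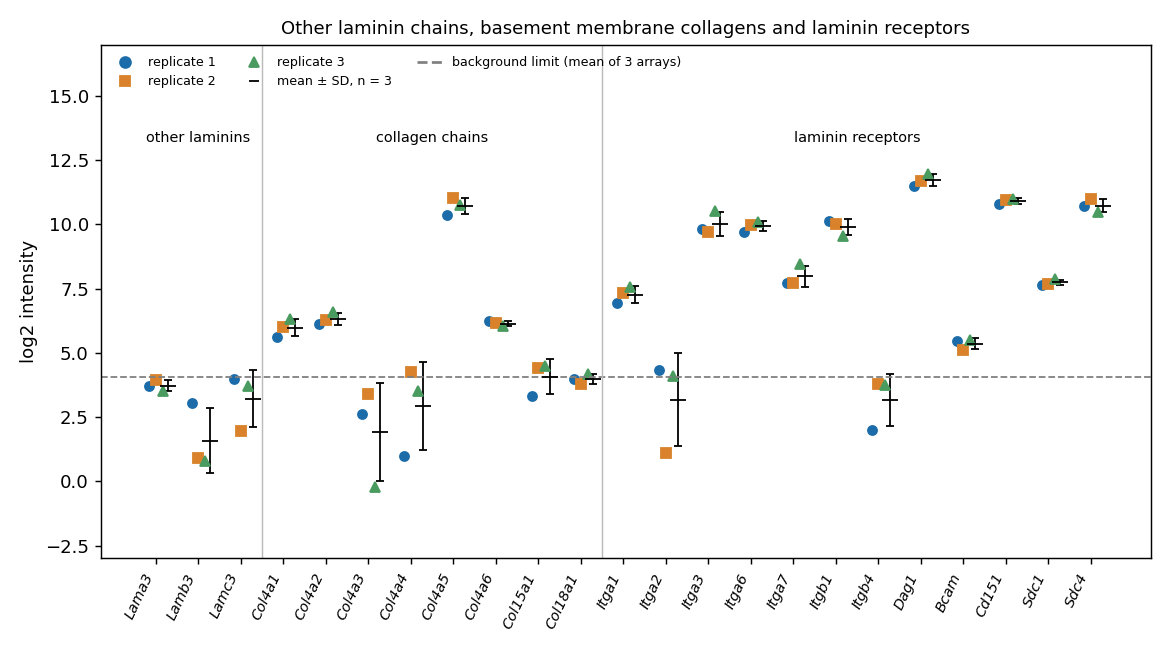
Log2 intensity (vertical axis) of the brightest probe set of other laminin chain, basement membrane collagen and laminin receptor genes on the 3 arrays (coloured symbols), with the mean ± SD (n = 3) in black and the mean background limit as a dashed line. The other laminin chain genes lie at or under the line, 4 of 8 collagen genes clear it, and 10 of 12 receptor genes clear it.

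Genes that prepare dystroglycan for laminin binding were called in 8 of 8 measured cases. The first enzymes of that sugar chain, Pomt1 and Pomt2, were at 7.02 ± 0.37 and 6.31 ± 0.49, and Pomgnt1 and Pomgnt2, which extend it, were at 8.02 ± 0.29 and 6.80 ± 0.31. Heparan sulfate chains, such as those of perlecan, were represented by 14 measured genes, and 13 were called (92.9%, against 58.3% of all genes). The genes build and sulfate the chains, except Sulf1 and Sulf2, which encode sulfatases. Xylt1 and Ndst1 were not measured. Xylt2, B4galt7, B3galt6 and B3gat3, which lay down the linker to the core protein, were at 5.34 ± 0.10, 5.73 ± 0.46, 5.65 ± 0.03 and 7.85 ± 0.23. The gene not called was Sulf1, for an extracellular sulfatase, at 3.78 ± 0.47, named after its value was seen.

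Among other basement membrane proteins 9 of 16 genes were called (56.2%). Agrn, for the proteoglycan agrin, was at 10.70 ± 0.35 on 1 called probe set of 2. Sparc, for a collagen-binding protein, was at 13.54 ± 0.06, and its relative Smoc1 at 8.81 ± 0.32. Smoc2 ranged from 0.08 to 2.22 and did not pass. Of the genes for matrix folding and cross-linking, 10 of 12 were called. The collagen chaperone gene Serpinh1 and P4hb, P4ha1 and P4ha2, of collagen prolyl hydroxylase, were at 11.43 ± 0.34, 10.84 ± 0.30, 9.94 ± 0.27 and 6.46 ± 0.42. The 2 that did not pass, named after their values were seen, were the lysyl oxidase genes Lox at 3.19 ± 0.39 and Loxl1 at 2.66 ± 1.40. Genes for matrix-cleaving proteases were called in 7 of 15 cases. Mmp2, for a gelatinase, was at 4.88 ± 0.31 and passed (adjusted p = 0.0144). Mmp3, Mmp7 and Mmp9 were at 2.17 ± 0.55, 3.62 ± 1.34 and 1.33 ± 1.66 and did not.

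Astrocyte markers were called in 8 of 8 cases. Neural precursor markers, some of which astrocytes also express, were called in 5 of 5. Gfap, Aqp4, Slc1a3 and Slc1a2 were at 12.63 ± 0.12, 11.87 ± 0.10, 10.95 ± 0.25 and 9.57 ± 0.18, and Nes, Sox2, Fabp7 and Pax6 between means of 8.97 and 12.83. In such bulk samples, fewer cells of a type and less RNA per cell cannot be told apart.

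Cell types known to deposit laminin gave few calls, with 12.5% of endothelial and 25% each of mural and of fibroblast and meningeal markers. All genes gave 58.3%, and 24 measured genes of other tissues gave 12.5% (3 called). Of 8 endothelial markers 1 was above background, Kdr at 6.59 ± 0.46, and the summed intensity of the 8 ran from 96.5 to 197.5 over the arrays. Pecam1, Cdh5, Cldn5 and Tek, which define endothelium, were not called on any probe set. Of 8 mural cell markers 2 were called, Rgs5 at 5.03 ± 0.19 and Notch3 at 8.17 ± 0.38, and their summed intensity ran from 291.3 to 470.4. Pdgfrb, Cspg4 and Kcnj8 were not. Of 8 fibroblast and meningeal markers 2 were called, Pdgfra at 5.81 ± 0.08 and Foxc1 at 6.12 ± 0.34, with sums from 149.8 to 184.7. Col1a1, Col1a2, Col3a1 and Dcn were not. On every array, the called genes made up most of the sum of their list, which the call itself made likely in advance. The sums add probe sets that differ in brightness, so they only describe each list.

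Parietal and visceral endoderm, which secretes laminin-111 in the embryo, was represented by 2 of 10 markers (20%, against 58.3% of all genes). These were Gata4 at 5.10 ± 0.45 and Dab2 at 8.45 ± 0.18, and the list's sums ran from 413.1 to 501.2. Sox7, Sox17 and Gata6 were not above background. Dab2 made up most of the endoderm sum on every array, which its call far above the limit made likely in advance. Pluripotency markers gave 0 of 4 (limma, and 0 at an unadjusted p below 0.05), with means from -0.72 to 3.47 and sums from 21.3 to 30.3. Kdr, Notch3, Pdgfra, Foxc1 and Dab2 were named after their values were seen. The part of any such cells in the laminin signal was not tested.

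**Figure D4:**
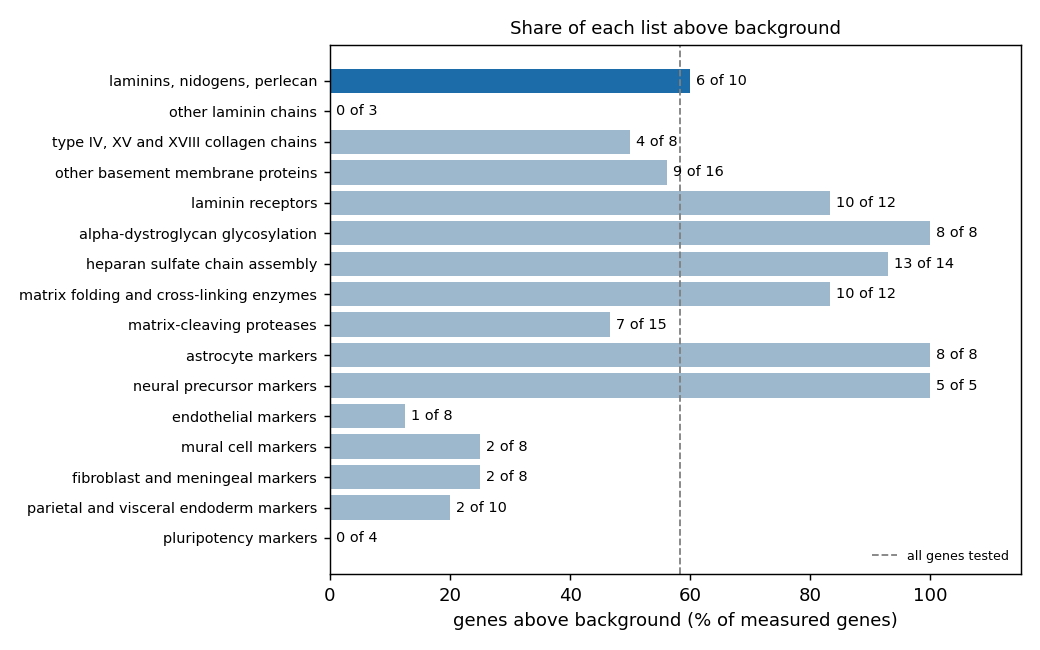
Percentage of measured genes above background (horizontal axis) in each gene list (bars, with the count at the end), and the 58.3% of all genes tested as a dashed line. The laminin, nidogen and perlecan genes, with 6 of 10, lie beside the line, the receptor and sugar-chain lists lie above it, and the vascular, fibroblast, endoderm and pluripotency lists below it.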

How the data were processed

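Total RNA of 3 samples was hybridised to 1-colour Affymetrix arrays. The authors deposited 1 linear intensity per probe set and array, made with GCOS 1.4 per the submitters' processing notes; the sources used here do not give its settings, scaling or detection calls. Arrays were not at a common level, with median intensities from 19.4 to 23.3, and no value was at or below 0. The number of arrays limits the precision. Pearson r over genes above background was 0.97 to 0.99, with 0 identical values between any 2 arrays.

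Of 45101 probe sets, 34958 had 1 gene in the platform annotation, 932 several and 9211 none. Symbols were updated through GRCm38.p6 (0 changed). Log2 was taken with no pseudocount, and a gene took its brightest probe set by mean. Log2 intensity minus each array's limit went into limma 3.58.1 under R 4.3.3 (one-sample, one-sided, eBayes, Benjamini-Hochberg over all genes), and likewise per probe set. The procedure was tested on simulated data.

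The members and all gene lists were chosen with earlier results of these data known. Genes outside the members were named by list order: all other laminin, collagen and receptor genes, and the first 4 measured of every other list, with exceptions stated. Lists were described by counts. Alternatives covered the limit, the probe set rule, normalization, an offset of 16, a filter, the variance model and leaving out each array. With 1 group no contrast could be made.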

Additional observations from a re-analysis of the deposited data

How the results depend on the processing

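Over 13 alternatives the count of members above background was 6, or 5 with the limit from genes of other tissues and with the median probe set value, where Lamb1 dropped out. No other member changed its call. The filter at the median mean is no test of stability: it left out Lama1, Lama2, Lama4 and Nid1, and all 9058 genes that remained were called. All genes above background ranged from 7963 to 10894. The limit from genes of other tissues was the strictest, with 7963 genes called. Krt10, Cela1 and Alb of that list were themselves above the limit from receptor genes. Centring arrays on their medians changes no call by construction, because each limit moves with its array.

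Of 231 counts under alternatives, 14 moved by over 1.5 times, all in 5 small lists. With the limit from genes of other tissues, collagen chains gave 1, proteases 4, mural, endoderm and fibroblast markers 1, 1 and 0. With the median probe set value, and with the filter, mural, fibroblast and endoderm markers gave 1 each. Endoderm markers gave 1 at the 99th percentile, and 1 to 2 when 1 array was left out (1 without replicate 1 or replicate 3). Calls lost under the filter follow from fewer genes tested. The 99th percentile and the limit from genes of other tissues are higher limits, so genes just above the main limit can drop out by construction. For the median probe set value and for leaving out an array, the cause was not tested. Cross-hybridisation could not be examined without single-probe data.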

Other observations

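Several further basement membrane genes, picked here after their values were seen, gave signal on every array. Ntn4, for netrin-4, a laminin-related protein that binds laminin γ chains, was at 8.40 ± 0.36 (SD, n = 3). Npnt, for nephronectin, a ligand of integrin α8β1, was at 9.64 ± 0.27 and was called on 3 of 5 probe sets. Fras1 and Frem2, whose products form a complex under embryonic epithelia, were at 5.96 ± 0.27 and 7.41 ± 0.16. Fras1 was called on 1 of 2 probe sets. Frem1, the partner of both, was at 3.46 ± 0.05 and did not pass. Pxdn, for peroxidasin, which cross-links type IV collagen, read 8.14, 8.68 and 9.31 and was above background (adjusted p = 0.000181, limma). Sulf2, an extracellular heparan sulfatase, was at 11.70 ± 0.17 on 3 of 3 probe sets, and its relative Sulf1 was called on 0 of 3 (limma).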
